A study of Mus musculus with 6 samples.

Results

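The mouse genes of 4 solute carrier families that move bicarbonate, protons and chloride across membranes were described in uteri with and without epithelial *Sox17*. They were chosen by symbol alone, as every gene whose name begins with Slc4a, Slc9a, Slc12a or Slc26a followed by a digit. No measured value entered this rule, but the members were chosen with earlier results of these data known. The RefSeq gene table held 42 such genes, and 41 of them had a probe on the arrays, among 20141 genes named there. Of these 41 genes, 11 had a symbol of the Slc4 family, 11 of the Slc9 family, 9 of the Slc12 family and 10 of the Slc26 family. The rule also took in 3 genes that are named for a transporter but are not one, *Slc4a1ap*, *Slc9a3r1* and *Slc9a3r2*, and these are described apart. *Slc26a8* was not analysed here.

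RNA came from whole uteri at gestation day (GD) 3.5 of natural pregnancy, 3 days after the copulatory plug, and the embryos had been flushed out. One genotype, Sox17f/f, carried the floxed *Sox17* allele on both chromosomes and no recombinase, and served as control (n = 3 arrays). The other, Sox17ed/ed, carried the same floxed alleles together with LtfiCre/+, an iCre recombinase made from the lactoferrin gene (n = 3 arrays). Females of both genotypes were mated at 8 to 10 weeks of age. The iCre acts in the uterine epithelium from puberty on, and *Sox17* in other cells of the wall, such as endothelium, is spared. Since no control carried iCre, the effect of the recombinase and the loss of *Sox17* cannot be told apart, and in RNA of a whole organ fewer cells of a type and less RNA per cell cannot be told apart either.

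The epithelium that lines the uterus and its glands sets the volume, pH and chloride content of the fluid in which the blastocyst floats before it attaches. Sodium-potassium-chloride cotransporters on the basal side load the cell with chloride, channels such as CFTR let it out at the apical side, and anion exchangers of the Slc4 and Slc26 families trade chloride for bicarbonate. Sodium-proton exchangers of the Slc9 family work the other way, taking up sodium and acidifying the lumen, and potassium-chloride cotransporters let chloride and potassium leave the cell. Estrogen and progesterone are known to shift the uterus between secretion and absorption of fluid around implantation.

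The level of each gene is given as the log2 of its background-subtracted spot signal after quantile normalization, so that a difference of 1 is a doubling or halving, and levels are compared only within a gene. *Sox17* itself, which checks the labels, lay at 12.21, 12.07 and 12.22 on the Sox17f/f arrays and at 9.75, 9.59 and 9.81 on the Sox17ed/ed arrays. Its change of -2.45 on the log2 scale (standard error, SE, 0.09, adjusted p = 2.66e-05 in limma) was in the direction that the labels give. Between 60.7% and 65.7% of spots were well above background on the Sox17f/f arrays, and between 56.8% and 59.4% on the Sox17ed/ed arrays. All 6 arrays lay on 1 slide read in 1 scan, each genotype in its own row, so that the place on the slide and the genotype cannot be told apart. One library stood apart in a marker of another organ: *Cyp11a1*, a steroid-making enzyme of the ovary, lay at 9.42 on the array of Sox17ed/ed replicate 3 and was not well above background on the other 5. Values without that array are given where they change a result.

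Of the 41 genes, 31 had a probe that rose well above background on 3 or more of the 6 arrays and were tested with limma among 14843 genes. A gene was taken to differ where its unadjusted p was under 0.01 and its fold change at least 1.4, the thresholds of the study's methods. *Slc12a3*, a sodium-chloride cotransporter, and *Slc26a6*, an anion exchanger, were lower in Sox17ed/ed uteri. *Slc4a8*, a sodium-driven chloride-bicarbonate exchanger, and *Slc9a3r1*, a scaffold protein, were higher. These 4 of 31 genes make 12.9%, beside 12.5% of all genes tested that passed the same thresholds, a share near that background. Without Sox17ed/ed replicate 3 the count was 2, *Slc12a3* and *Slc9a3r1*. With signal above background required on all 6 arrays, which leaves out *Slc12a3*, the count was 3. By direction the shares were near the background too, with 2 of 31 higher against 6.04% of all genes and 2 lower against 6.47%. An adjusted p under 0.05 with no fold threshold was reached by 6 genes, the same 4 together with *Slc12a8* and *Slc4a7*, where 18.9% of all genes reached it.

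Most of the transporters were measured and moved little. The genotypes did not overlap in any array for 13 of the 31 genes, or 41.9%, and for 40.6% of all genes tested. The median log2 fold change of the 31 genes was -0.03, and that of all genes -0.0015. The median size of the change, whatever its sign, was 0.24 on the log2 scale against 0.17 over all genes. For 26 of 31 genes (83.9%) the change was under 1.4-fold, as it was for 83.1% of all genes. The 95% interval of the change lay within 2-fold in both directions for 27 of the 31 genes, and within 1.4-fold for 12. The plot of the fold changes shows *Slc12a3* and *Slc26a6* far to the left and nearly all others near 0.

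**Figure D1:**
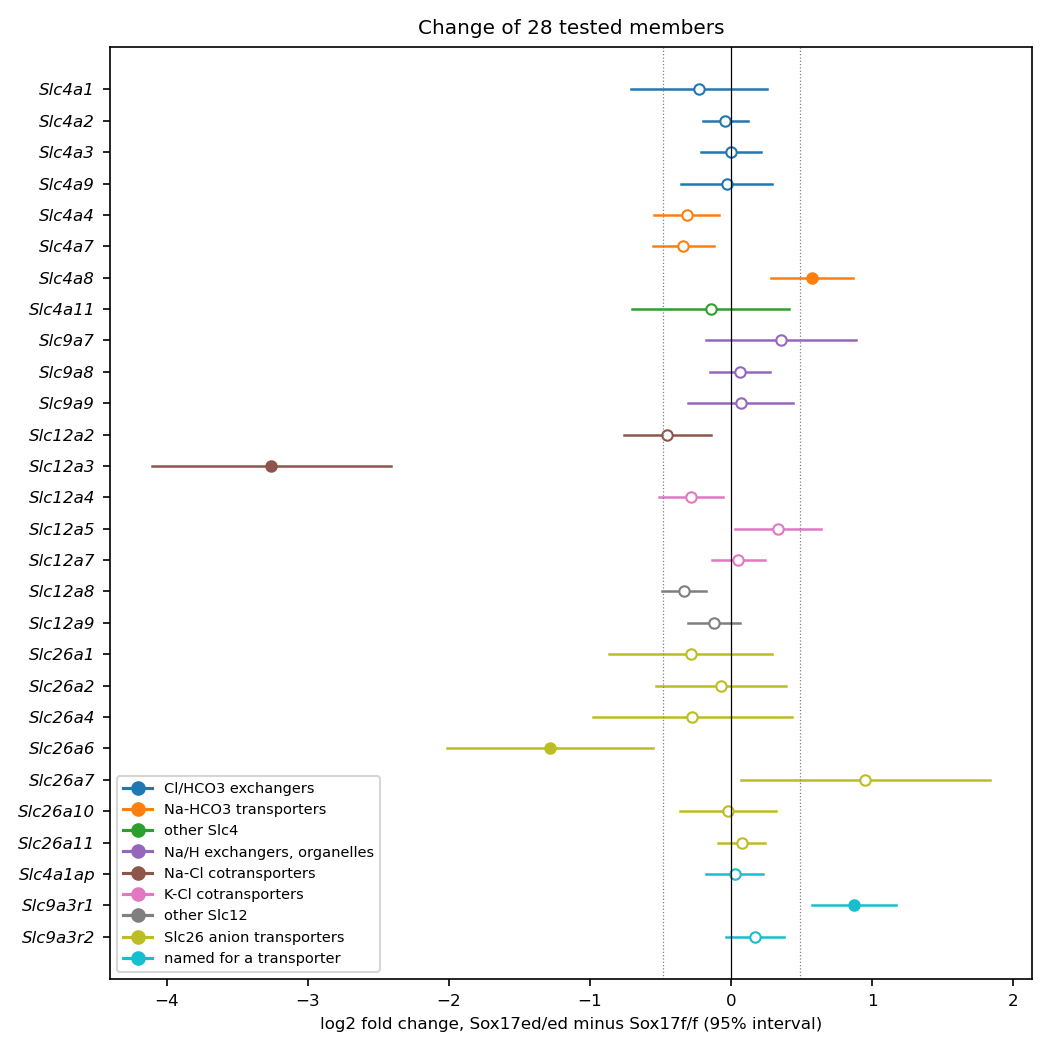
Log2 fold change (Sox17ed/ed minus Sox17f/f, horizontal axis) of 28 tested genes, grouped and coloured by class, with 95% limma intervals from 3 arrays per genotype. Filled points passed both thresholds, and the dotted lines mark a fold of 1.4. The value of *Slc12a3* is the fitted one, for which only an approximate bound of 2.63-fold is given.

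The stretches just before the start sites of the 4 genes that passed are shown because SOX17 is a DNA-binding factor and these are the members whose transcripts differed. Each run gives the 250 bases before the annotated start, 5′ to 3′ on the plus strand, from RefSeq on GRCm38.p6. They lie at chr8:94328958-94329207 (*Slc12a3*), chr9:108853793-108854042 (*Slc26a6*), chr15:100761497-100761746 (*Slc4a8*) and chr11:115163091-115163340 (*Slc9a3r1*), and capitals mark ATTGG, the CCAAT box read on the other strand.
Slc12a3: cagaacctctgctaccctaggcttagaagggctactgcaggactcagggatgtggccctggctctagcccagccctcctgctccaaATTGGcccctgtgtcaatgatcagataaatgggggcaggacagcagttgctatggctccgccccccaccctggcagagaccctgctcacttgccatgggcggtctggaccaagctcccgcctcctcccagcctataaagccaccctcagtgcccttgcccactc
Slc26a6: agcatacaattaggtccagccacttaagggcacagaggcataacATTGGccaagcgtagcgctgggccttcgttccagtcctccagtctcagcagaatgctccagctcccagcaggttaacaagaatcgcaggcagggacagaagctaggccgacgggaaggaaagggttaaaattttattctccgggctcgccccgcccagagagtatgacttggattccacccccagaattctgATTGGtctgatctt
Slc4a8: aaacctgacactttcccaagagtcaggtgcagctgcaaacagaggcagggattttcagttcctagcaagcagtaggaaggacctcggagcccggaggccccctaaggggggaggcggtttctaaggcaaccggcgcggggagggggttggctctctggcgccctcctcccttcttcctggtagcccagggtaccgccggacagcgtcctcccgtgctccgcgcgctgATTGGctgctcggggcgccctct
Slc9a3r1: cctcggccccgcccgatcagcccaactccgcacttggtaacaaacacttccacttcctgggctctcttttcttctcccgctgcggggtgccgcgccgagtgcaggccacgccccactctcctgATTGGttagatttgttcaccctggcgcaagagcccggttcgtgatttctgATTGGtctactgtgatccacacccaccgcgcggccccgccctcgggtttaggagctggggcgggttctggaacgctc
None of the 4 windows, each of 300 bases from 250 before to 50 after the start, held the SOX core ATTGTT on either strand. Over all the families, 29 of the 41 genes had a window in the table, 38 windows in all, and 2 windows (5.26%) held the SOX core, where 10.7% of 32851 windows of all genes did. Those were windows of *Slc26a1* and *Slc26a3*, with the match beginning at positions -246 and -106 from the start. The full palindromic estrogen response element with its 3-base spacer, searched without mismatch, was in 0 of the 38 windows and in 0.07% of all windows. The CCAAT box, again on either strand, a common promoter element that was added to the search after the windows had been read, was in 15 of 38 windows (39.5%) and in 37.4% of all. These matches describe letters in a short window, and say nothing of whether SOX17 binds there or elsewhere.

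The sodium-chloride cotransporters of the Slc12 family carry chloride into the cell with sodium. *Slc12a3* encodes NCC, the thiazide-sensitive cotransporter best known from the distal tubule of the kidney. Its level was 5.66, 5.24 and 5.30 on the Sox17f/f arrays and 1.70, 1.77 and 2.96 on the Sox17ed/ed arrays. It was well above background on all 3 control arrays and on 0 of 3 Sox17ed/ed arrays. An approximate bound put it 2.63-fold lower in Sox17ed/ed uteri, which is not a strict minimum. *Slc12a3* passed the filter on low signal only through the controls, where it is high, and its adjusted p of 0.00177 in limma rests on Sox17ed/ed values under the background, so it adds nothing to the bound. The bound sets the mean of the control arrays, 5.40 ± 0.23 (SD, n = 3), against the lowest signal that counted as well above background on the Sox17ed/ed arrays. Spots brighter than that signal can still miss the call. *Slc9a5* did so at 4.101 on Sox17ed/ed replicate 2. *Slc4a1*, at 4.50 to 5.01 on the Sox17ed/ed arrays, was well above background on 2 of 3. The true fold of *Slc12a3* may thus be smaller than the bound. The thresholds were passed under all 16 alternatives in which it could be tested, but these too rest on Sox17ed/ed values under the background. With normexp background correction, which shrinks differences near background, the log2 fold change was -0.72.

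*Slc12a2* encodes NKCC1, the basolateral cotransporter of sodium, potassium and chloride that feeds chloride secretion in many epithelia. Its level was 12.45, 12.09 and 12.23 in Sox17f/f uteri and 11.997, 11.705 and 11.705 in Sox17ed/ed uteri. All Sox17ed/ed arrays lay below all control arrays. The log2 fold change of -0.45 (SE 0.13, adjusted p = 0.0575 in limma) missed both thresholds. It passed both with arrays shifted by their 75th percentiles (-0.50), with normexp (-0.49), without Sox17f/f replicate 2 (-0.54) and without Sox17ed/ed replicate 1 (-0.55). *Slc12a1*, the related NKCC2 of the kidney's loop of Henle, stayed at background on all 6 arrays.

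Potassium-chloride cotransporters lower chloride in the cell and help it regain its volume after swelling, and none of those tested passed. *Slc12a4* (KCC1) had a log2 fold change of -0.29 (SE 0.09, adjusted p = 0.0861 in limma), and its arrays did not overlap between the genotypes. *Slc12a5* (KCC2, the cotransporter of neurons) had 0.33 and *Slc12a7* (KCC4) 0.05, with adjusted p of 0.124 and 0.683 in limma. Of the more distant members of the family, *Slc12a9* was at -0.12. *Slc12a8* lay at 5.70, 5.75 and 5.74 in Sox17f/f uteri and at 5.40, 5.33 and 5.46 in Sox17ed/ed uteri. The genotypes did not overlap, and the change of -0.33 (SE 0.06, adjusted p = 0.0161 in limma) was small but larger than the spread between arrays, with an SD of 0.02 and 0.06. A second probe of *Slc12a8* gave -0.38 with overlapping arrays. With normexp the change was -0.10, with an adjusted p of 0.485 in limma. The limma adjusted p was 0.203 with a variance trend by intensity, 0.0722 with probes averaged and 0.0662 with a replicate block. With the deposited table it was 0.0143.

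The Slc26 family exchanges chloride for bicarbonate, sulfate, oxalate or iodide. *Slc26a6* encodes PAT1, an apical exchanger of chloride for bicarbonate and oxalate in the pancreas, gut and kidney. The probe that stood for the gene read 10.92, 11.43 and 10.44 on the Sox17f/f arrays and 9.63 and 9.66 on Sox17ed/ed replicates 1 and 3. On Sox17ed/ed replicate 2 the scanner software marked its spot as an outlier, and it was left out. The log2 fold change was -1.28 (SE 0.29, 95% interval -2.01 to -0.56, adjusted p = 0.0366 in limma).

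The remaining probes of *Slc26a6* were measured on all 6 arrays, and they read the same way. The first gave 8.57, 9.02 and 7.92 in Sox17f/f uteri and 7.26, 7.08 and 7.33 in Sox17ed/ed uteri, a log2 fold change of -1.28 (SE 0.27, adjusted p = 0.0241 in limma over probes). The second gave 8.36, 8.97 and 7.81 against 6.83, 6.76 and 7.03, a change of -1.50 (SE 0.28, adjusted p = 0.0166 in limma over probes). On both, all arrays of Sox17ed/ed uteri lay below all of the controls, and the control arrays spread more widely (SD 0.55 and 0.58) than those of Sox17ed/ed uteri (SD 0.13 and 0.14). The deposited table still holds the marked spot, at 11.80 on the same scale, above all 5 other arrays. With it the brightest probe gave -0.58 (limma adjusted p = 0.569), so the call from that probe rests on the spot being left out. Its call was also lost without Sox17f/f replicate 1 (-1.29), without Sox17ed/ed replicate 1 (-1.27) and without Sox17ed/ed replicate 3 (-1.30). Leaving out either of these Sox17ed/ed arrays leaves 1 on that probe, which is then assumed to vary like the controls. It was lost with no filter on low signal (adjusted p = 0.0807 in limma) and without moderation of the variance as well.

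*Slc26a7*, a chloride and bicarbonate transporter of stomach and kidney, had a fitted fold change of 1.93. It lay at 6.43, 5.38 and 6.87 in Sox17f/f uteri and at 7.13, 7.34 and 7.07 in Sox17ed/ed uteri. The Sox17ed/ed arrays were all above the controls, but the controls spanned more than the difference between the means. The change of 0.95 (SE 0.36, adjusted p = 0.125 in limma) did not pass. It passed with normexp (0.61) and without Sox17f/f replicate 3 (1.27), and shrank to 0.53, short of the p threshold, without Sox17f/f replicate 2, the lowest control.

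The other 5 tested members of the family did not pass and their arrays overlapped. These were *Slc26a1* and *Slc26a2*, which carry sulfate, *Slc26a4* (pendrin, an exchanger of chloride for iodide and bicarbonate), *Slc26a10* and *Slc26a11*. Their log2 fold changes ran from -0.29 for *Slc26a1* to 0.07 for *Slc26a11*. The interval of *Slc26a4* was wide, from -0.98 to 0.43, and that of *Slc26a11* narrow, from -0.09 to 0.24. *Slc26a3* (DRA, the chloride-bicarbonate exchanger of the colon), *Slc26a5* (prestin, the motor of outer hair cells) and *Slc26a9* (a chloride channel of airway and stomach) were not well above background on any array.

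**Figure D2:**
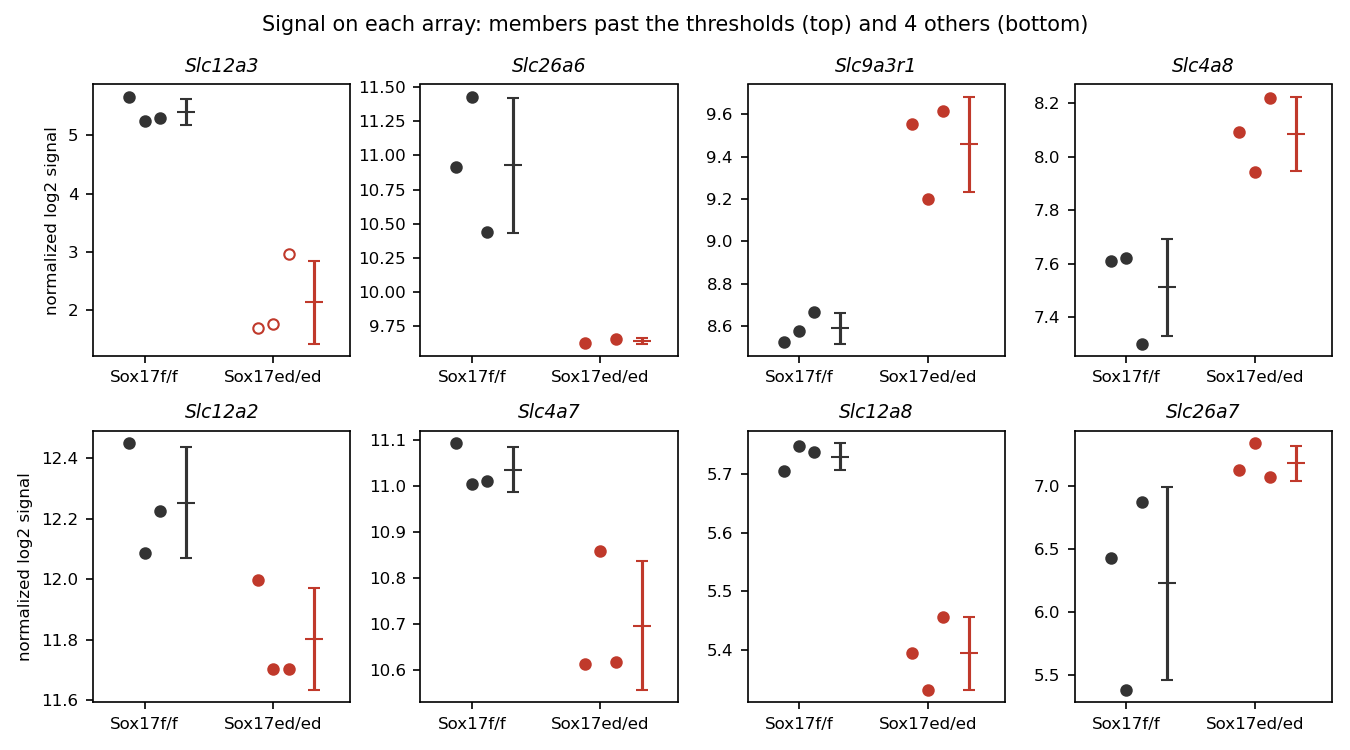
Normalized log2 signal (vertical axis, a separate scale in each panel that does not start at 0) of the 4 genes that passed the thresholds (top) and 4 others (bottom) on each array of Sox17f/f (dark) and Sox17ed/ed (red) uteri, with the mean and SD beside the points. Open points were not well above background, as on all 3 Sox17ed/ed arrays for *Slc12a3*, and *Slc26a6* has 2 Sox17ed/ed points because 1 spot was left out.

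The sodium-bicarbonate transporters of the Slc4 family carry bicarbonate across the cell membrane together with sodium. *Slc4a8* encodes NDCBE, which trades sodium and bicarbonate for chloride and is best known from neurons and the kidney. It lay at 7.61, 7.62 and 7.30 in Sox17f/f uteri and at 8.09, 7.94 and 8.22 in Sox17ed/ed uteri. All 3 Sox17ed/ed arrays were above all controls. The log2 fold change was 0.57 (SE 0.12, adjusted p = 0.0222 in limma), or 1.49-fold, just past the fold threshold. It fell short of that threshold with normexp (0.38) and without Sox17f/f replicate 3 (0.47), and missed the p threshold without Sox17ed/ed replicate 1 (0.57), without Sox17ed/ed replicate 3 (0.50) and in an ordinary linear model.

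*Slc4a7* encodes NBCn1, an electroneutral sodium-bicarbonate cotransporter found in many tissues. The probe that stood for it read 11.094, 11.005 and 11.011 in Sox17f/f uteri and 10.61, 10.86 and 10.62 in Sox17ed/ed uteri. The genotypes did not overlap, and the change of -0.34 (SE 0.09, adjusted p = 0.0451 in limma) was below the fold threshold. Without Sox17ed/ed replicate 3 the change was -0.30 (limma adjusted p = 0.12), and with normexp -0.21 (limma adjusted p = 0.109). With arrays shifted by their 75th percentiles it was -0.36 (limma adjusted p = 0.0382). A second probe of the gene gave -0.08 with overlapping arrays. *Slc4a4* (NBCe1, the electrogenic cotransporter of pancreatic ducts and the proximal tubule) had -0.32 on one probe (limma adjusted p = 0.0695) and -0.56 on another (adjusted p = 0.0628 in limma over probes), and on both the Sox17ed/ed arrays lay below all controls. One further probe did not exceed the background anywhere.

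The 4 chloride-bicarbonate exchangers of the Slc4 family, which export bicarbonate in trade for chloride, were all tested and none passed. *Slc4a2* (AE2, the exchanger of most epithelia) lay at 10.84, 10.71 and 10.81 against 10.72, 10.78 and 10.74, a change of -0.04 with a 95% interval from -0.20 to 0.12. *Slc4a3* (AE3) was at 0.0021 (interval -0.21 to 0.21) and *Slc4a9* (AE4) at -0.03 (interval -0.35 to 0.29). *Slc4a1*, the band 3 protein of red cells, was at -0.23 (interval -0.71 to 0.25), and of the tested red cell markers the 3 globin genes were at 0.10 to 0.23 with overlapping arrays, whereas *Alas2*, the first enzyme of heme synthesis in red cells, was at -1.03 with arrays that did not overlap (limma adjusted p = 0.0734). For these 4 exchangers the arrays of the genotypes overlapped. *Slc4a11*, a more distant member of the family that moves protons, was at -0.14 (interval -0.70 to 0.41).

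Sodium-proton exchangers raise the pH of the cell or of its organelles. The epithelial exchangers *Slc9a3* (NHE3) and *Slc9a4* (NHE4) were not well above background on any array, and *Slc9a2* (NHE2) and *Slc9a5* (NHE5) were on 1 Sox17f/f array each. Of the exchangers of Golgi and endosomes, *Slc9a7* had a fitted change of 0.35, *Slc9a8* of 0.06 and *Slc9a9* of 0.07. None of these passed, and the arrays of the genotypes overlapped for all 3. A second probe of *Slc9a8* had the opposite sign (-0.24).

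Among the 3 genes named for a transporter, *Slc9a3r1* encodes NHERF1, a PDZ scaffold under the apical membrane that ties NHE3, CFTR and other transporters to ezrin. It lay at 8.52, 8.58 and 8.66 in Sox17f/f uteri and at 9.56, 9.20 and 9.62 in Sox17ed/ed uteri. The 3 Sox17ed/ed arrays were all above the controls. The log2 fold change was 0.87 (SE 0.12, adjusted p = 0.00522 in limma), or 1.83-fold, and it passed the thresholds under all 17 alternatives, with values from 0.790 to 0.998 when each array was left out in turn. *Slc9a3r2* (NHERF2), the related scaffold, was at 0.17 (interval -0.03 to 0.37). *Slc4a1ap*, named for a partner of AE1, was at 0.03 on its brighter probe and at -0.72 on a dimmer one (adjusted p = 0.0917 in limma over probes).

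**Figure D3:**
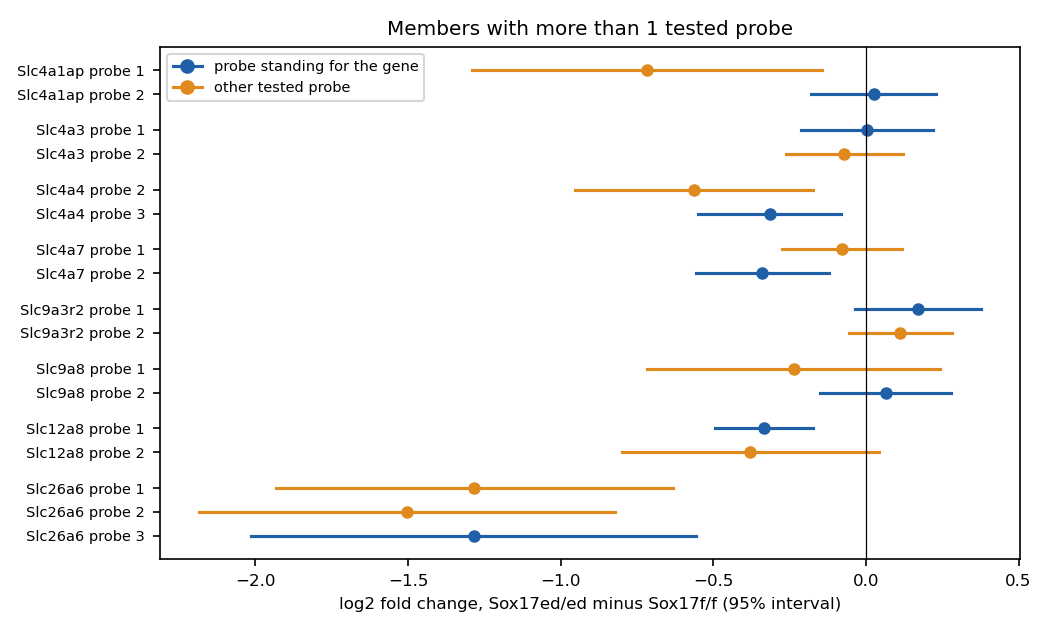
Log2 fold change (Sox17ed/ed minus Sox17f/f, horizontal axis) with its 95% interval for each tested probe of 8 genes with more than 1 tested probe. The 3 probes of *Slc26a6* lie together between -1.50 and -1.28, whereas those of *Slc4a1ap* lie furthest apart, at -0.72 and 0.03.

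Of the 41 genes, 27 were well above background on all 6 arrays and 7 on none. The 10 untested genes were the 7 never above background and *Slc4a5* (NBCe2), *Slc9a2* and *Slc9a5*, each above background on 1 control array. *Slc9a2* read 3.75, 3.92 and 3.79 on Sox17f/f arrays and 1.86, 3.16 and 2.11 on Sox17ed/ed arrays, and *Slc26a9* read 2.88, 3.86 and 2.47 against 1.76, 1.74 and 1.70. *Slc12a1* read 1.638, 1.640 and 1.635 against 1.655, 3.428 and 2.499. The genotypes did not overlap for these 3 genes, but the signals lie at or under the background, so neither a fold nor a direction is read from them. The share of all untested genes without overlap was not computed. A transcript confined to few cells of the uterus may lie under the limit that whole-organ RNA sets, and these arrays do not show that it is absent.

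**Figure D4:**
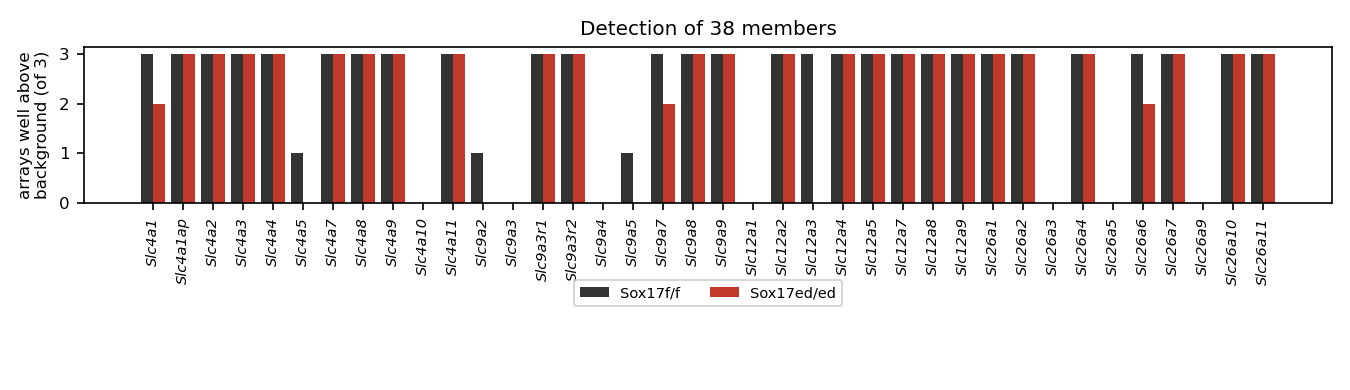
Number of arrays (of 3 per genotype, vertical axis from 0) on which the probe that stands for each of 38 genes was well above background, in Sox17f/f (dark) and Sox17ed/ed (red) uteri. *Slc12a3* has 3 control arrays and no Sox17ed/ed array, and *Slc26a6* has 2 Sox17ed/ed arrays because a spot was left out.

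Transporters of these families are switched by kinases and carried by scaffolds, and 17 of 19 such regulators on a list had a tested probe (*Wnk3* and *Klhl3* were not analysed here). Of these 17 regulators, 3 passed the thresholds and all 3 were higher in Sox17ed/ed uteri, beside 6.04% of all genes. *Pdzk1*, a PDZ scaffold related to NHERF1, lay at 4.78, 4.69 and 4.13 in Sox17f/f uteri and at 6.95, 7.17 and 6.90 in Sox17ed/ed uteri, a log2 fold change of 2.47 (SE 0.19, adjusted p = 0.000414 in limma). *Sgk1*, a kinase that raises the activity of sodium channels and of NHE3, lay at 10.99, 10.85 and 10.60 against 12.71, 12.19 and 12.58, and rose by 1.68 (limma adjusted p = 0.00124). *Tesc*, tescalcin, a calcium-binding partner of sodium-proton exchangers, lay at 7.63, 7.22 and 7.92 against 9.21, 8.96 and 9.07, and rose by 1.49 (limma adjusted p = 0.00303). For all 3 the arrays of the genotypes did not overlap.

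The WNK kinases act through SPAK (*Stk39*) and OSR1 (*Oxsr1*), which phosphorylate NCC and NKCC1. *Wnk4* had a log2 fold change of 0.47 (limma adjusted p = 0.0177) and *Oxsr1* one of -0.45 (limma adjusted p = 0.0134), both just under the fold threshold, at 1.39-fold and 1.37-fold. *Wnk1*, *Wnk2* and *Stk39* were at 0.20, -0.08 and -0.10 and did not pass. Ezrin, the anchor of the NHERF scaffolds (*Ezr*), was at 0.03 with an interval from -0.14 to 0.20. The median of the 17 regulators was 0.19, against -0.0015 for all genes.

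Of 15 partners, the channels, pumps and carbonic anhydrases that work beside these transporters, 14 were tested and 6 passed, 2 higher and 4 lower in Sox17ed/ed uteri, beside 6.04% and 6.47% of all genes. Both groups were written with earlier results of these arrays known, so their counts are a description. *Car12*, a carbonic anhydrase on the outer face of the cell, lay at 13.05, 13.27 and 12.39 in Sox17f/f uteri and at 9.17, 9.16 and 9.19 in Sox17ed/ed uteri, a log2 fold change of -3.73 (SE 0.22, adjusted p = 0.000157 in limma). *Atp6v0a4*, a subunit of the proton pump of acid-secreting cells, lay at 9.37, 9.13 and 8.22 against 7.43, 7.43 and 7.26, and fell by 1.53 on the log2 scale (SE 0.29, adjusted p = 0.0153 in limma). *Atp6v1c2*, another subunit of that pump, lay at 4.68, 4.24 and 4.57 in Sox17f/f uteri and at 1.79, 1.88 and 1.81 in Sox17ed/ed uteri, where it was not well above background. The same approximate bound put it 1.41-fold lower, but its control mean, 4.50, lies where spots can miss the call. Since it too passed the filter only through the controls, its fitted p is not given as support. *Atp12a*, the non-gastric proton-potassium pump, lay at 8.17, 8.49 and 8.03 against 7.38, 7.28 and 7.13, and fell by 0.97 (limma adjusted p = 0.00533).

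*Car9*, a carbonic anhydrase induced by low oxygen, lay at 6.69, 6.59 and 6.70 in Sox17f/f uteri and at 7.67, 7.23 and 7.45 in Sox17ed/ed uteri, and rose by 0.79 on the log2 scale (limma adjusted p = 0.00691). *Cftr*, the apical channel for chloride and bicarbonate, lay at 5.54, 5.27 and 5.55 in Sox17f/f uteri and at 4.63, 5.24 and 4.83 in Sox17ed/ed uteri. Its arrays did not overlap, and its change of -0.55 (SE 0.17, adjusted p = 0.0717 in limma) missed the p threshold. Among the rest, *Ano1*, a calcium-activated chloride channel, was at 0.40 (limma adjusted p = 0.0339). Its arrays did not overlap, and it missed the fold threshold only. *Clcn2* was at 0.09 with overlapping arrays (limma adjusted p = 0.453) and did not pass.

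**Figure D5:**
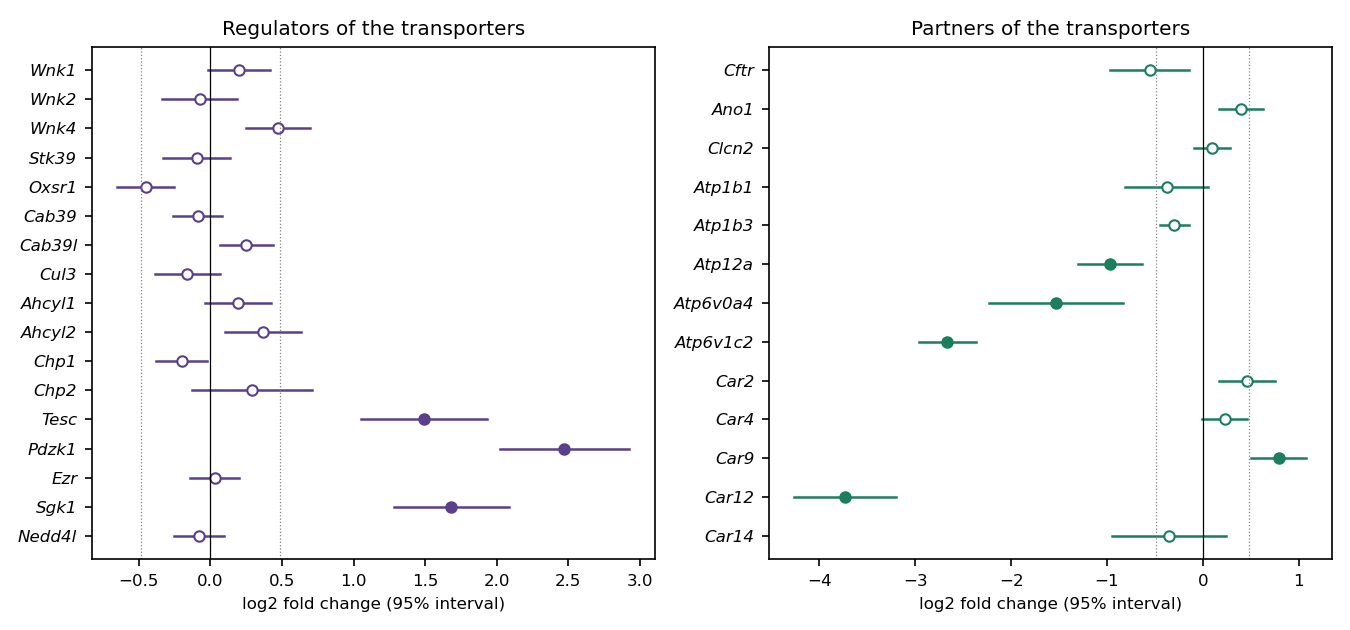
Log2 fold change (Sox17ed/ed minus Sox17f/f, horizontal axes) with 95% intervals of 17 tested regulators (left) and 13 tested partners (right), where filled points passed both thresholds and dotted lines mark a fold of 1.4. *Pdzk1*, *Sgk1* and *Tesc* stand apart on the left and *Car12* on the right. The value of *Atp6v1c2* is a fitted one, for which only an approximate bound of 1.41-fold is given.

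Markers of the cell types in the wall were read beside these genes. All 8 markers of uterine epithelium were well above background, and their summed signal was 15.72 to 15.79 (log2) in Sox17f/f and 15.69 to 15.98 in Sox17ed/ed uteri. That sum is weighted to *Krt18*, the brightest of the list (-0.16). Within the list *Krt8*, *Krt19* (2.10) and *Cdh1* were higher and *Cldn3* (-1.16) and *Cldn7* (-0.71) lower at the thresholds. The overlapping sums therefore do not show that the epithelial markers stayed level. None of the tested markers of stroma (6), smooth muscle (5), endothelium (5), leukocytes (3), neutrophils (3), red cells (4), ovary (2) or adipocytes (2) passed, where 12.5% of all genes did. The summed signal of 5 lists did not overlap between the genotypes and was lower in Sox17ed/ed uteri. It was 12.85 to 12.88 in Sox17f/f and 12.51 to 12.58 in Sox17ed/ed uteri for endothelium, and 18.63 to 18.76 and 18.21 to 18.49 for muscle. In both of these lists all 5 markers had a negative change. For stroma it was 17.75 to 17.78 and 17.49 to 17.67. That sum is weighted to *Dcn*, the brightest of the list (-0.42), and of the 6 stroma markers 3 were higher and 3 lower. For the oviduct and ciliated cell list it was 10.38 to 11.21 and 8.30 to 8.50, and for adipocytes 6.99 to 7.86 and 6.73 to 6.94. The adipocyte sum is weighted to *Fabp4*, the brightest of its list (-0.78). *Adipoq*, the other tested marker there, had a change of the opposite sign (0.95, SE 0.92) with overlapping arrays, so the lower sum does not describe the whole list. Of neuronal markers *Tubb3* and *Prph* were lower (2 of 4), and *Tubb3* was well above background on 2 of 3 Sox17ed/ed arrays. *Snap25*, the brightest of that list, was at 0.22 with overlapping arrays, and *Elavl4* at -0.25, and neither passed. The summed signal of the list overlapped, at 11.54 to 11.96 in Sox17f/f and 11.82 to 12.13 in Sox17ed/ed uteri. The 2 lower markers thus do not describe the whole list. Among oviduct and ciliated cell markers *Ovgp1* was lower and *Foxj1* higher (2 of 3). *Foxj1* was well above background on only 1 of 3 Sox17f/f arrays (3.90, 4.26 and 2.90), so its fold rests on control values near or under the background. The sum of that list is weighted to *Ovgp1*, its brightest marker (-2.92). Of squamous markers *Krt5* passed (1 of 4), but it was well above background on 0 of 3 Sox17f/f arrays. *Krt5* passed the filter only through the Sox17ed/ed arrays, so its fitted p is not given as support. An approximate bound, set from the mean of the Sox17ed/ed arrays, put it 5.25-fold higher there. Those arrays read 7.80, 4.94 and 5.33, so replicate 1 raises the mean and the bound does not hold for each array. The part of these shifts in the levels of the transporters was not tested.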

How the data were processed

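The authors deposited the scanner output of 6 1-colour Agilent arrays (3 Sox17f/f and 3 Sox17ed/ed uteri), made with Feature Extraction 11.0.1.1 per the file headers (version 9.1 in the submitters' processing notes), and a table of processed intensity values. The intensity used is the deposited processed signal, which the software had corrected for background and spatial trend, with no normalization between arrays. Its log2 was computed here, control spots and 169 to 302 spots per array marked as outliers were left out, and the values were quantile normalized, as the study's methods name. Probes were averaged, and those well above background on at least 3 arrays with at least 2 values per genotype were kept. Subtracting background makes dim log2 values uncertain, so folds against a genotype not above background are approximate bounds. They are not strict minima, since a spot brighter than the lowest signal called well above background can miss the call. Of 55681 probes, 26576 were named by accession from RefSeq (GRCm38.p6), 16194 carry a genome position and 12911 were not matched. The array design is on mm9, so no coordinates of genes or probes are given, and those of the promoter windows are on GRCm38.p6. Where a gene had several, its brightest probe on average was used.

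Samples were grouped by the genotype in the labels, and no numbers pair them. For the 14843 genes kept, lmFit and eBayes of limma 3.58.1 were run in R 4.3.3 and p-values adjusted after Benjamini and Hochberg over that whole table, and probes in the same way over all probes kept. The study's methods give the thresholds and name no test. An exact two-sided permutation test of 1 gene with 3 arrays against 3 cannot go below p = 0.1. The labels give replicates without saying that each is 1 mouse, whereas the series design calls them biological samples, and the number of arrays limits the precision. Python 3.11.15 (pandas 2.3.3, numpy 2.4.6, scipy 1.17.1, matplotlib 3.10.9) made the tallies and plots, and the fit was tested on simulated data.

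The members, the lists of regulators, partners and cell type markers, and the tests were chosen with earlier results of these data known. A few members and list genes are not reported here by name, although they stay in the fits and counts. Values on every array are given for those past the thresholds, those with an adjusted p under 0.05 and those with a bound, and of the regulators and partners for those past the thresholds; other genes were named after their values were seen. Promoter windows came from a RefSeq table. Alternatives were a 75th percentile shift, normexp (offset 50, on median signals, since mean signals were not used here), other filters and probe rules, a variance trend with intensity, an unmoderated linear model, the deposited table, a replicate block, other thresholds and each array left out.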

Additional observations from a re-analysis of the deposited data

How the results depend on the processing

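Of the 31 tested genes of the 4 families, 4 passed the thresholds, and 3 to 6 did so under the alternatives apart from those named next. The count was 2 in an ordinary linear model and 2 with a fold threshold of 2, and ranged from 2 (without Sox17ed/ed replicate 3) to 5 (without Sox17f/f replicate 2) as each array was left out in turn. The cause was not tested. The 4 genes that passed kept their sign under every alternative run, and so did 23 of the 31, whereas the other 8, with reported values between -0.14 and 0.07, did not. Of the 27 that did not pass, 25 passed under no alternative with the same thresholds, and *Slc12a2* and *Slc26a7* under some. Leaving probes with a missing array out, an alternative chosen after the data were seen, put a second *Slc26a6* probe in place and gave 4. Of the regulators and partners, 9 passed, 14 had an adjusted p under 0.05 in limma with no fold threshold, and 9 to 11 passed with each array left out. Over all genes, 1856 passed, and between 1370 (ordinary linear model) and 2033 (without Sox17f/f replicate 3) did so under the other fits with the same thresholds. With the replicate number as a block 3 genes of the families passed, since *Slc4a8* did not (0.57, limma adjusted p = 0.0759). The numbers do not pair the mice by the labels, and the deviations of same-numbered arrays correlated at 0.063, -0.114 and -0.00021. *Slc12a3* could not be tested where all 6 arrays had to be above background. Signals near background limit *Slc12a3* and the 10 untested genes most.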
